A study of Mus musculus with 9 samples.

Results

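The genes described here are 50 mouse genes for chromatin remodelling and histone or DNA modification, listed by name among the 21887 protein-coding genes of a reference table. The list uses no peak value, but it was drawn up with earlier results of these data known. The data are peak lists for E2A and HEB, basic helix-loop-helix factors encoded by Tcf3 and Tcf12, from chromatin immunoprecipitation and sequencing of 3 kinds of cultured thymocyte precursor. All cells came from Rag2-deficient (Rag2-/-) BALB/c fetal liver progenitors grown with OP9-DL1, a stromal line that carries a Notch ligand, so every group lacked Rag2. DN3 cells were the untransduced stage. For the other groups, DN3 cells of culture day 7 received the KN6 receptor, a gamma-delta T cell receptor, by transduction and were cultured for 3 days. They were then sorted, after fixation for 10 min in 1% formaldehyde, into CD24+ CD73- cells, which per the labels kept alpha-beta potential, and CD24+ CD73+ cells, described as committed to gamma-delta development. No transduced control without the receptor is among the samples, so effects of the receptor, of transduction and of longer culture cannot be told apart.

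Each stage had 1 input, 1 E2A and 1 HEB library. The authors joined duplicates before peaks were called, so there are 6 peak lists with 1 list per group, no replicate error and no test against it. Within a stage, E2A and HEB peaks were called against the same input. A peak belongs to a gene here if it lies in the gene's span or within 10 kb of it. The authors' score is the log10 p-value from MACS times -10, so the lowest score of 50 stands for p = 1e-05. It ranks peaks within 1 list only, and peaks of at least 100 are called strong. Read depth is unknown, so a gene without a peak had none called, which does not show that the factor was absent. The CD73+ E2A list stood apart: it was the longest, at 23205 peaks against 9407 to 12434 in the others, and 7.02% of its peaks were strong, against 8.79% to 40.6%. Of its peaks, 16.8% were met by another list, compared with 31.8% to 60.0% for each of the other lists. An exchange of the CD73+ E2A and HEB labels cannot be told apart from a difference between the factors, so the counts of members by number or stage of their lists, and of sites by number of lists, are also given without the CD73+ E2A list. Peak lists measure no expression and cannot check cell identity. Of 10 T precursor marker genes, all had DN3 E2A and DN3 HEB peaks, against 26.2% and 24.3% of all coding genes. Of 8 stromal markers 1 and 2 did, of 6 B cell markers 1 and 1, and of 6 myeloid markers 2 and 2. Of 5 erythroid markers 0 and 0 did, and of 5 NK cell markers 3 and 2. In the CD73- E2A, CD73- HEB, CD73+ E2A and CD73+ HEB lists, 5, 7, 3 and 8 T precursor markers had a peak. Stromal markers there numbered 3, 2, 0 and 1, B cell markers 0, 1, 0 and 1, and myeloid markers 1, 2, 2 and 1. Erythroid markers numbered 1, 0, 1 and 0, and NK cell markers 0, 2, 0 and 1.

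As background, chromatin regulators act on nucleosomes and DNA in opposing ways. Polycomb complexes place and read repressive histone marks, demethylases and deacetylases remove marks, acetyltransferases add them, SWI/SNF and CHD enzymes move nucleosomes with energy from ATP, and the Dnmt and Tet enzymes add and oxidise methyl groups on cytosine. E proteins bind E-box sequences, CANNTG, and are known to work with p300 family acetyltransferases and to drive the early T cell programme. Whether E proteins also sit at the genes of the chromatin regulators themselves is what the peak positions describe.

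Peaks over the start of a member gene were few, and the promoters of the 3 members below are shown because a peak met sequence just upstream of a listed start there. Of 41 members with a listed start, 3 (7.32%) had a peak over the 250 bases before it in any list, against 5.25% of 17492 coding genes. Each sequence below is the 250 bases before the start, from RefSeq (GRCm38.p6), read 5′ to 3′ on the gene's strand, with every CANNTG in capitals. They are Hdac7 on the minus strand at chr15:97844503-97844752, Dnmt3a on the plus strand at chr12:3891494-3891743, and Kdm1a on the minus strand at chr4:136602724-136602973.
Hdac7: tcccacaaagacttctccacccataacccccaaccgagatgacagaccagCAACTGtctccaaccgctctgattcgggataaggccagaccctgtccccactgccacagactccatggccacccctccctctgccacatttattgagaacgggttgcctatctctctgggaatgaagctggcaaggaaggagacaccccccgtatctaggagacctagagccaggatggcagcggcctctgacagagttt
Dnmt3a: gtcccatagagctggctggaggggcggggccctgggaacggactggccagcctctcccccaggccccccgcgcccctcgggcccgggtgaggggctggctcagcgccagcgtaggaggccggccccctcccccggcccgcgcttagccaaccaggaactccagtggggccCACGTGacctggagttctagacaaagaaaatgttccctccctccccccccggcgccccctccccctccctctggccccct
Kdm1a: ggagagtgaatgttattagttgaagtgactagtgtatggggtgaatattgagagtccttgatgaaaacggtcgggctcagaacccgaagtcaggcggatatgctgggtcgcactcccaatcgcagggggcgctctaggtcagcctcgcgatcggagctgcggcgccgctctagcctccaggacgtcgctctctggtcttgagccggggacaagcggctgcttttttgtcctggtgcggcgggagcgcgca
The Hdac7 window holds 1 such motif, which reads CAACTG and whose first base lies 200 bases before the start. Both DN3 peaks cover all 250 bases and the motif. The CD73+ HEB peak reaches 152 bases into the window, the CD73- E2A peak 81 and the CD73- HEB peak 7, none of them as far as the motif, and no CD73+ E2A peak meets it. The Dnmt3a window, at a start inside the gene, lay in a DN3 HEB peak of 119 and holds 1 such motif, which reads CACGTG and begins 80 bases before the start. The Kdm1a window was met by a DN3 E2A peak of 84.7 and holds none. CANNTG occurred in 46.6% of 58 member windows and in 62.8% of 21263 windows of all coding genes. CAGCTG stood in 8.62% of member windows and 12.1% of all, and CAGGTG, or CACCTG as its reverse complement, in 10.3% and 16.9%. CANNTG includes the other motifs, and both strands were searched. These windows cover only part of each peak, and no sequence of the other peaks was used here.

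Members with a peak were most numerous in the DN3 E2A and CD73+ HEB lists. In DN3 cells 25 of 50 members had an E2A peak (50%), against 26.2% of all coding genes, and 18 had a HEB peak (36.0%), against 24.3%. In CD73- cells 11 had an E2A peak (22.0%), against 17.6% of all genes, and 16 a HEB peak (32.0%), against 17.1%. In CD73+ cells 16 had an E2A peak (32.0%), against 23.7%, and 21 a HEB peak (42.0%), against 20.2%. The members are long genes, with a median span of 58.1 kb against 17.2 kb for all coding genes, and a longer gene has more room for a peak. With all coding genes weighted to the members' spans in 4 classes (under 20, 20 to 50, 50 to 100 and over 100 kb), the shares for all genes were 37.1% for DN3 E2A, 34.6% for DN3 HEB, 27.2% for CD73- E2A, 26% for CD73- HEB, 36.3% for CD73+ E2A and 29.2% for CD73+ HEB. The member shares of DN3 E2A and CD73+ HEB thus stood above those of genes of like span, as did that of CD73- HEB by a smaller margin. The DN3 HEB share lay close to it, and the CD73- E2A and CD73+ E2A shares lay below it. None of these differences has a replicate check.

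**Figure D1:**
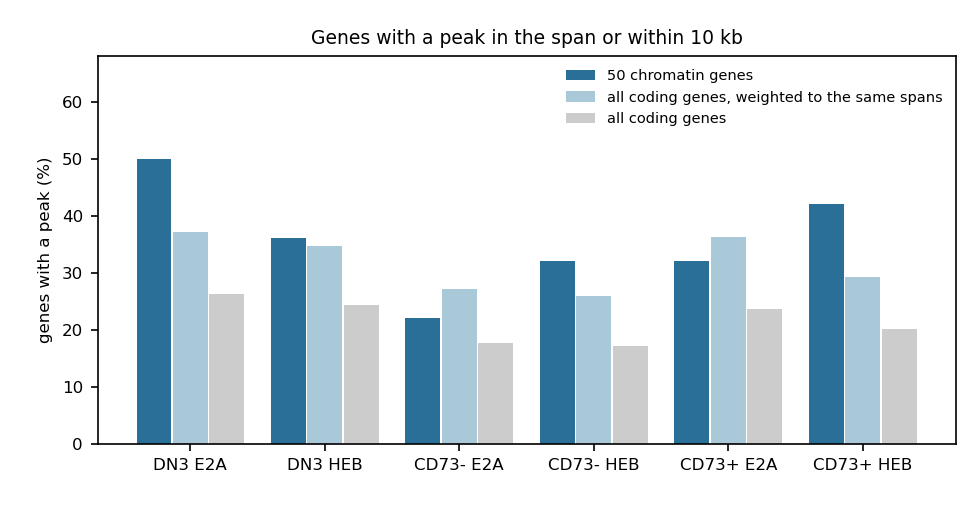
Percent of genes with a peak in the span or within 10 kb, for each of the 6 lists. Dark bars are the 50 members, light blue bars all 21887 coding genes weighted to the members' 4 span classes, and grey bars all coding genes; the member share is 50% for DN3 E2A against 37.1% and 26.2%.

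Among strong peaks the DN3 lists came first. The member share stood above that of genes of like span for DN3 E2A, DN3 HEB, CD73- HEB and CD73+ HEB. For CD73- E2A and CD73+ E2A, with few members, it lay near that share. Members with a strong peak numbered 16 for DN3 E2A (32.0%, against 13.4% of all genes and 19.8% after weighting by span) and 13 for DN3 HEB (26%, against 10.5% and 15.5%). They numbered 3 for CD73- E2A (6.0%, against 3.06% and 4.42%), 6 for CD73- HEB (12.0%, against 4.08% and 6.04%), 4 for CD73+ E2A (8.0%, against 4.0% and 6.69%) and 10 for CD73+ HEB (20.0%, against 7.43% and 10.5%). The DN3 lists hold more strong peaks than the others, so the counts cannot be compared between stages.

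The members differed widely among themselves. Jarid2, Hdac4, Hdac7, Hdac9 and Chd7 had a peak in all 6 lists (10.0% of members, against 3.28% of all genes), and Nsd1 and Smarca4 in 5, which made 7 members with peaks in 5 or 6 lists (14.0%, against 6.91%). Without the CD73+ E2A list, 5 members had a peak in all remaining lists (against 4.50% of all genes). Except where stated, the shares of all genes given here were not weighted by span, and a longer gene has more room for peaks. At the other end 10 members had no peak in any list (20.0%, against 45.5% of all genes and 29.6% after weighting by span), and 15 had one in a single list (30%, against 22.4%). Of those 15, Ezh1, Ezh2, Eed, Ncor1 and Crebbp had their peaks in the CD73+ E2A list alone (10.0% of members, against 6.43% of all genes), so 15 members had no peak once that list was left out (against 51.9% of all genes) and 12 had one in a single list (24.0%, against 20.8%).

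**Figure D2:**
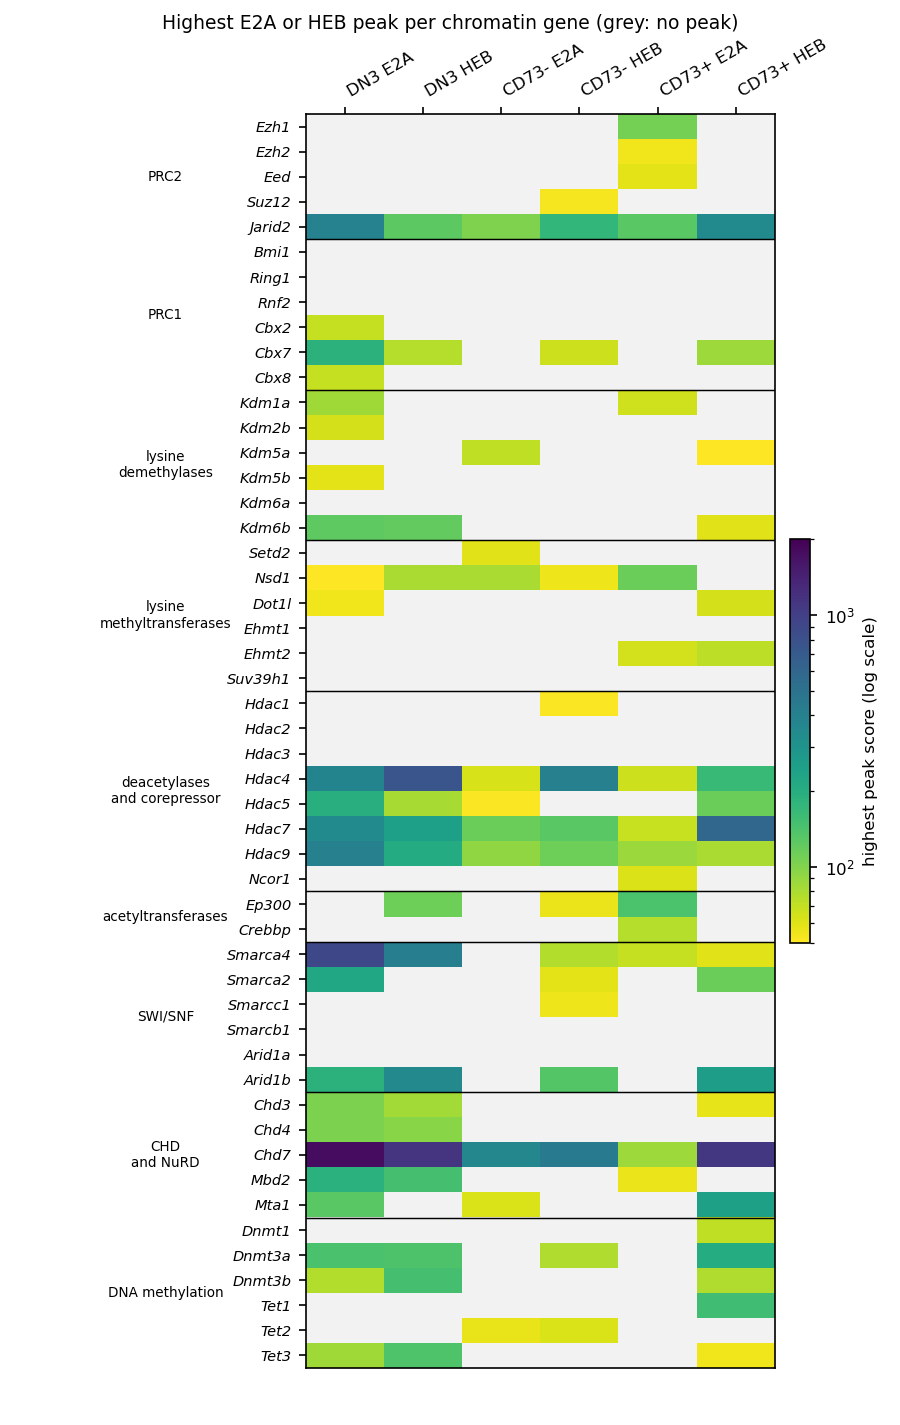
Highest peak score of each of the 50 members (rows, grouped by function) in each of the 6 lists (columns), on a log colour scale from yellow (50) to dark violet (2000), with grey for no peak. Chd7 has the darkest cell, 1776 in the DN3 E2A list, and the core Polycomb genes are nearly all grey.

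Of the 11 Polycomb genes, all 5 of PRC2 and 3 of the 6 of PRC1 had a peak in some list. The share of all genes was 70.4% at the members' spans. A DN3 E2A peak was found at 1 and 3 of them, against 26.2% of all genes (37.1% at the members' spans). In PRC2, which methylates histone H3, the enzyme genes Ezh1 and Ezh2 and the core subunit gene Eed had 1 CD73+ E2A peak each, of 108, 53.9 and 57.8, and none elsewhere. Suz12, the other core subunit, had a CD73- HEB peak of 52.3 alone. These scores lay near the lowest value in the lists, 50, except that of Ezh1. The peaks of Ezh1, Eed and Suz12 lay outside the genes, 6407, 7781 and 5374 bp from their spans, and that of Ezh2 lay inside. Jarid2, an accessory subunit that helps bring PRC2 to DNA, differed from these genes. Of all genes, 27.9% of those of 20 to 50 kb, 39.3% of 50 to 100 kb and 54.1% over 100 kb had a DN3 E2A peak. Jarid2 spans 190.9 kb, against 26.3 to 65.0 kb for Ezh1, Ezh2, Eed and Suz12, and the part of span was not tested. Its highest scores were 391 for DN3 E2A, 127 for DN3 HEB, 102 for CD73- E2A, 173 for CD73- HEB, 128 for CD73+ E2A and 349 for CD73+ HEB. All of them fell at 1 site of 1161 bp inside the gene, on chromosome 13 at 44869123 to 44870283 (mm10), 138432 bp downstream of the nearest listed start. Sites with peaks in all 6 lists made up 2 of 126 member sites (1.59%) and 1.04% of 58451 sites over the genome, where a site is a set of peaks from any list merged where they overlap.

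In PRC1, which ubiquitinates histone H2A, the ring finger genes Ring1 and Rnf2 and their partner Bmi1 had no peak, with the nearest one 16425 to 30009 bp from the gene. Ring1, Bmi1 and Rnf2 are short, at 3.9, 9.6 and 31.6 kb, against 55.3 kb for Cbx7. Of all genes under 20 kb, 16.9% had a DN3 E2A peak. Cbx7, a subunit that reads methylated histone H3, had 188 for DN3 E2A, 75.8 for DN3 HEB, 66.7 for CD73- HEB and 85.9 for CD73+ HEB, and no peak in either later E2A list. Its DN3 peaks met the CD73+ HEB list at a site inside the gene (chromosome 15, 79956177 to 79957126), with a CD73+ HEB score of 64.2. The CD73+ HEB maximum of 85.9 lay at another site in the gene, with a DN3 E2A peak of 59.9, and the CD73- HEB list had 2 peaks apart from both, of 66.7 and 65.4. Cbx2 and Cbx8, which code for other readers and are neighbours on chromosome 11, share their single peak, a DN3 E2A peak of 69.6 that lies between them.

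Among the 6 lysine demethylase genes, 4 had a DN3 E2A peak and 1 of them also a DN3 HEB peak, against 26.2% and 24.3% of all genes (37.1% and 34.6% at the members' spans). That gene was Kdm6b, which encodes a remover of the Polycomb methyl mark, with 124 for DN3 E2A, 121 for DN3 HEB and 58.9 for CD73+ HEB at 1 site inside the gene (chromosome 11, 69418088 to 69419136). No CD73- peak was called there. Kdm1a, a demethylase of the CoREST corepressor complex, had the promoter peak shown above and a CD73+ E2A peak of 65.0 elsewhere in the gene. Kdm2b, which links a PRC1 variant to CpG islands, had a DN3 E2A peak of 63.5 alone, 1220 bp outside the gene. Kdm5b, which removes methyl marks of active promoters, had a DN3 E2A peak of 58.5 alone, inside the gene. Kdm5a, its relative, had none in DN3 cells but 70.9 for CD73- E2A and 50.2 for CD73+ HEB at separate places. Kdm6a had no peak in any list.

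None of the 6 histone methyltransferase genes had a strong DN3 peak. Of all genes 13.4% had one for E2A and 10.5% for HEB, so in a group of this size the count of 0 is not a result about the group. Nsd1, which methylates histone H3 in gene bodies, had peaks in 5 lists, of 50.2 for DN3 E2A, 80.2 for DN3 HEB, 79.5 for CD73- E2A, 55.0 for CD73- HEB and 114 for CD73+ E2A. They were spread over 6 sites, and only 1 of those sites had peaks of more than 1 list. Dot1l, the methyltransferase of the histone H3 core, had 54.2 for DN3 E2A and 63.8 for CD73+ HEB at 1 site 2588 bp downstream of its start. Ehmt2, which places a silencing methyl mark, had 64.2 for CD73+ E2A and 71.7 for CD73+ HEB at separate sites, the first 8438 bp outside it and nearer Zbtb12, and Setd2, which acts behind RNA polymerase, had a CD73- E2A peak of 58.7 alone. Ehmt1 and Suv39h1, of the same silencing class, had none.

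The deacetylase genes split by class. Hdac4, Hdac5, Hdac7 and Hdac9, the class IIa enzymes that shuttle between nucleus and cytoplasm, all had peaks in both DN3 lists (34% of members and 16.5% of all genes did), and Hdac4, Hdac7 and Hdac9 in all 6. Of the class I genes in the list, Hdac1 had a CD73- HEB peak of 51.2 alone, 1522 bp outside it and in Marcksl1, and Hdac2 and Hdac3 had none. The class IIa members are longer, with spans of 34.4 to 869.5 kb against 18.0 to 27.6 kb for the class I members. Of all genes of 20 to 50 kb, 27.9% had a DN3 E2A peak, against 54.1% of those over 100 kb. This split was chosen with the values known.

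Hdac7, which is known for its role in thymocyte survival and leaves the nucleus on T cell receptor signals, had its highest scores at 350 for DN3 E2A, 249 for DN3 HEB, 114 for CD73- E2A, 129 for CD73- HEB, 68.5 for CD73+ E2A and 594 for CD73+ HEB. The later peaks had their highest scores at the site over the start (chromosome 15, 97843683 to 97845512), where the DN3 scores were 241 and 213. It was the other member site with peaks in all 6 lists. Another site, 4918 bp upstream of another listed start, had 317 for DN3 E2A, 249 for DN3 HEB, 75.6 for CD73- HEB and 195 for CD73+ HEB. Further into the gene, a site with 350 for DN3 E2A and 113 for DN3 HEB and a site with 180 and 217 had no later peak. A CD73- HEB peak of 52.0 stood alone in the gene. The sites near the 5′ end of the gene thus had DN3 and later peaks, and no later list had a peak at the DN3 sites further in.

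Hdac4 had its highest scores at 381 for DN3 E2A, 759 for DN3 HEB, 62.9 for CD73- E2A, 402 for CD73- HEB, 66.1 for CD73+ E2A and 165 for CD73+ HEB. Its strongest site, inside the gene at chromosome 1, 92069166 to 92070205, had HEB and E2A scores of 759 and 307 in DN3 cells, 402 and no E2A peak in CD73- cells, and 165 and 63.9 in CD73+ cells. Scores of different lists are not on a common scale, and within the DN3 and CD73- HEB lists only Chd7 among the members scored higher. A site 6345 bp downstream of the nearest listed start, which lies inside the gene, had 381 for DN3 E2A, 332 for DN3 HEB and 88.1 for CD73- HEB. A further site, 2130 bp downstream of that listed start, had a peak in 5 lists, all but CD73+ E2A.

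Hdac9 spans 869.5 kb and had peaks in all 6 lists, of 402 for DN3 E2A, 207 for DN3 HEB, 91.8 for CD73- E2A, 113 for CD73- HEB, 87.0 for CD73+ E2A and 79.9 for CD73+ HEB. The DN3 maxima lay at chromosome 12, 34659663 to 34660690, with a CD73+ HEB peak of 75.2. Another site, at 34073539 to 34073952, had peaks of 64.3 to 113 in the 5 lists other than DN3 HEB. Hdac5 had 198 for DN3 E2A, 81.2 for DN3 HEB, 51.4 for CD73- E2A and 114 for CD73+ HEB, at 3 sites inside the gene. Ncor1, the corepressor that binds Hdac3, had a CD73+ E2A peak of 60.4 at most.

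The acetyltransferase genes Ep300 and Crebbp, whose products are known partners of E proteins, had no DN3 E2A peak. Ep300 had a DN3 HEB peak of 112 centred 840 bp before its start, a CD73- HEB peak of 55.6 and a CD73+ E2A peak of 142, at 3 separate places outside the gene. The last was the highest CD73+ E2A score of any member and stood at no other list's site. That peak was narrow, at 70 bp against a median of 172.5 bp for the CD73+ E2A peaks at members. Crebbp had a CD73+ E2A peak of 75.7 alone.

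**Figure D3:**
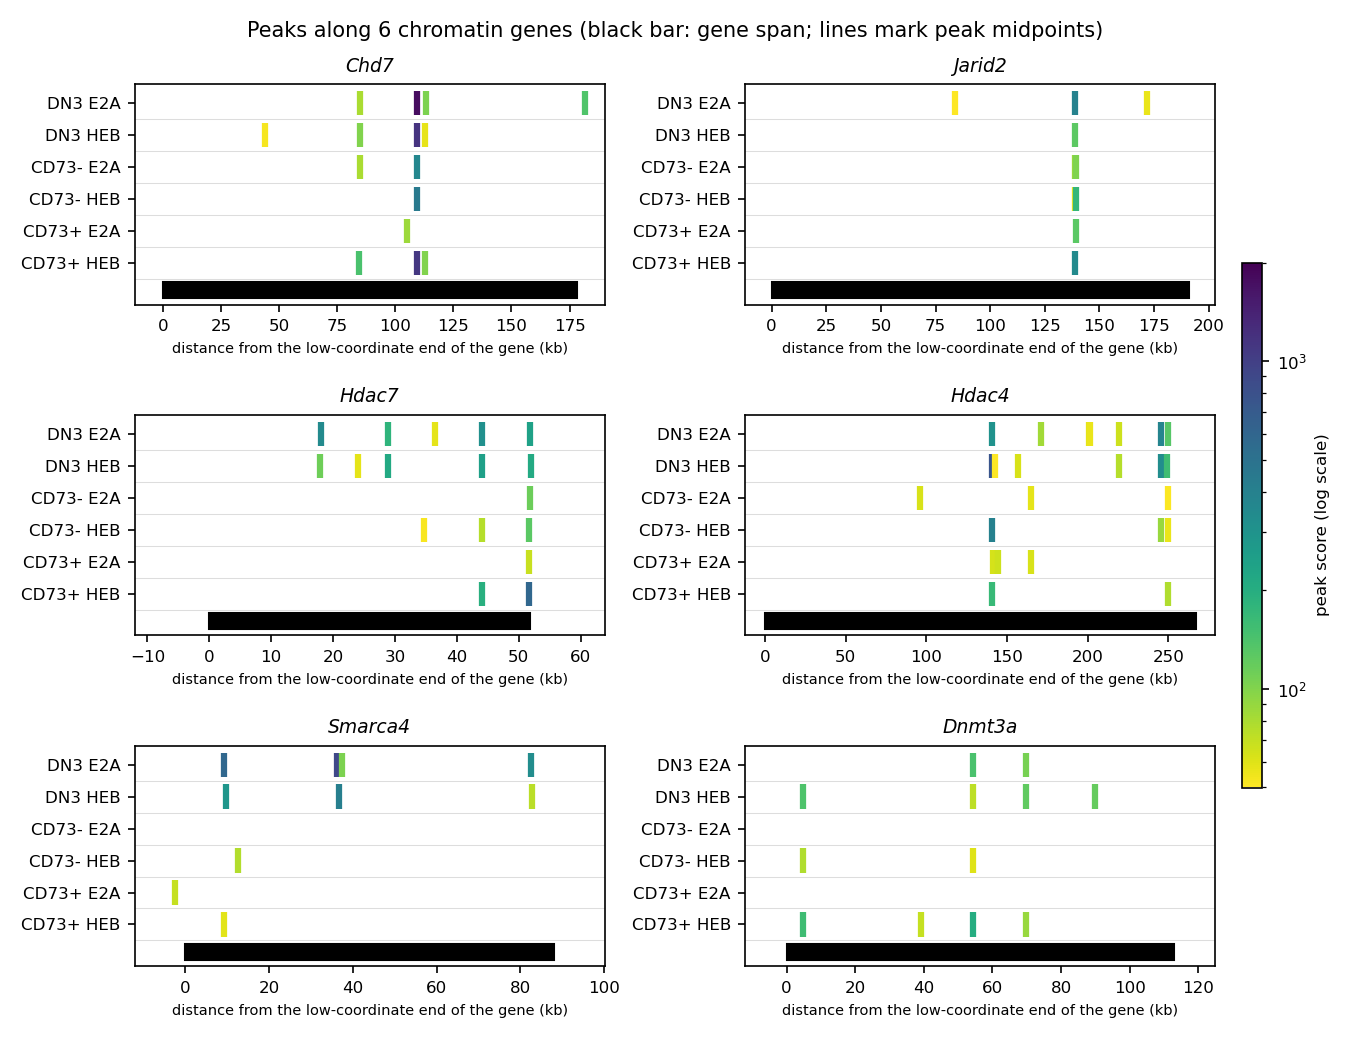
Peaks along 6 members. Each line marks a peak midpoint in 1 of 6 lists, coloured by score on a log scale, at its distance in kb from the low-coordinate end of the gene (black bar). Chd7 and Jarid2 each have a column of peaks at 1 site, Hdac7 has one at its right end (the start of this minus-strand gene), and Smarca4 has high DN3 peaks and weak later ones.

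In the SWI/SNF group Smarca4, which encodes the ATPase BRG1, had the second highest E2A score of the members. Its highest scores were 900 for DN3 E2A, 411 for DN3 HEB, 76.7 for CD73- HEB, 69.2 for CD73+ E2A and 59.1 for CD73+ HEB, with no CD73- E2A peak. The DN3 peaks lay at 3 sites inside the gene. The first, 9550 bp downstream of the start (chromosome 9, 21624892 to 21626546), had 580 for E2A and 287 for HEB and still had a CD73+ HEB peak, of 59.1. The second (21651783 to 21653818) had 900 and 411, the third (21698337 to 21699204) had 333 and 73.2, and neither had a later peak. The CD73- HEB and CD73+ E2A peaks of the gene lay elsewhere.

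Smarca2, the gene of the alternative ATPase BRM, had 223 for DN3 E2A, 57.8 for CD73- HEB and 115 for CD73+ HEB at 1 site and no DN3 HEB peak. Arid1b, which codes for a DNA-binding subunit, had 188 for DN3 E2A, 353 for DN3 HEB, 134 for CD73- HEB and 254 for CD73+ HEB, and no later E2A peak. Its 11 sites were all inside the gene, and the DN3 HEB maximum (chromosome 17, 5146195 to 5148665) had no E2A peak in any list. Smarcc1, a core subunit gene, had a CD73- HEB peak of 54.9 alone. Arid1a, the paralogue of Arid1b, and the core subunit gene Smarcb1 had none, with the nearest peaks 56829 and 35147 bp away.

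In the CHD and NuRD group, E2A peaks were called in DN3 cells at all 5 genes and HEB peaks at 4, against 26.2% and 24.3% of all genes (37.1% and 34.6% at the members' spans). The peaks of Chd4 and Mta1 all lay nearer other genes. Chd7, a nucleosome remodeller found at enhancers, had the highest score of the members in every list but CD73+ E2A. Its highest scores were 1776 for DN3 E2A, 1156 for DN3 HEB, 362 for CD73- E2A, 444 for CD73- HEB, 86.4 for CD73+ E2A and 1106 for CD73+ HEB. All but the CD73+ E2A peak lay at 1 site of 1569 bp inside the gene (chromosome 4, 8798993 to 8800561). The CD73+ E2A peak lay elsewhere in the gene. The DN3 E2A peak ranked 109 of 12357, the DN3 HEB peak 79 of 11619 and the CD73+ HEB peak 85 of 10194. Another site of Chd7 (8774725 to 8775417) had 79.5, 100, 79.5 and 144 in the DN3 E2A, DN3 HEB, CD73- E2A and CD73+ HEB lists.

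The NuRD remodeller genes Chd3 and Chd4 had DN3 E2A and HEB peaks of 104 and 83.0 and of 103 and 96.2. The 2 peaks of Chd3 lay at separate sites, with a CD73+ HEB peak of 57.7 at the HEB site, which lay outside Chd3 and nearer Kcnab3, and Chd4 had no later peak. Mbd2, a reader of methylated DNA, had 189 for DN3 E2A and 148 for DN3 HEB, at 1 site 4157 bp outside the gene. Another DN3 HEB peak, of 68.9, lay inside Mbd2, and a CD73+ E2A peak of 55.5 lay 9068 bp outside it. Mta1, a NuRD scaffold gene, had 129 for DN3 E2A, 61.6 for CD73- E2A and 247 for CD73+ HEB at 1 site. That site lay 2409 bp outside Mta1 and in Crip2. The Chd4 peaks lay 5240 bp (E2A) and 5356 bp (HEB) outside the gene and nearer Lpar5.

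Of the DNA methylation genes, Dnmt3a, a de novo methyltransferase, had 144 for DN3 E2A, 141 for DN3 HEB, 77.6 for CD73- HEB and 205 for CD73+ HEB and no later E2A peak. A site inside the gene, centred 559 bp before the nearest listed start (chromosome 12, 3806152 to 3806690), had HEB peaks at all 3 stages. They scored 141, 77.6 and 157, and the site had no E2A peak. Another site inside the gene (3855361 to 3856499) had 144 for DN3 E2A and 72.1, 60.2 and 205 for HEB in DN3, CD73- and CD73+ cells. Dnmt3b, the other de novo enzyme, had 76.8 for DN3 E2A, 148 for DN3 HEB and 78.0 for CD73+ HEB. Its DN3 maxima lay at 1 site 9634 bp outside it and nearer Commd7, and the CD73+ HEB peak lay inside the gene with a DN3 E2A peak of 69.3. Dnmt1, the maintenance enzyme, had a CD73+ HEB peak of 71.6 alone, which lay 8538 bp outside it and in Eif3g.

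The Tet genes, whose products oxidise methylcytosine, differed in the lists with a called peak. Tet3 had 84.5 for DN3 E2A, 139 for DN3 HEB and 53.8 for CD73+ HEB, the DN3 HEB maximum and the CD73+ HEB peak at the same site. Tet1 had a CD73+ HEB peak of 155 alone, the highest of the 7 member sites found in that list only. Tet2 had 56.6 for CD73- E2A and 61.3 for CD73- HEB at separate sites and no other peak. In the whole DNA methylation group, 5 of 6 members had a CD73+ HEB peak, Dnmt1 through its peak in Eif3g alone, and 0 a CD73+ E2A peak. The shares of all genes were 20.2% and 23.7% (29.2% and 36.3% at the members' spans).

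Members with peaks in DN3 cells and none later were Cbx2, Cbx8, Kdm2b, Kdm5b and Chd4, 5 of 50 (10.0%, against 10.9% of all genes). Members with later peaks and none in DN3 cells were Ezh1, Ezh2, Eed, Suz12, Kdm5a, Setd2, Ehmt2, Hdac1, Ncor1, Crebbp, Smarcc1, Dnmt1, Tet1 and Tet2, 14 of 50 (28.0%, against 20.6%). Their highest scores were under 100 except for Ezh1 and Tet1. Without the CD73+ E2A list the later-only members numbered 9 (18.0%, against 14.1%), as Ezh1, Ezh2, Eed, Ncor1 and Crebbp dropped out, and the DN3-only members 7 (14.0%, against 13.4%), as Kdm1a and Mbd2 joined them. Cbx7, Kdm6b, Arid1b, Chd3, Dnmt3a, Dnmt3b and Tet3 had peaks in both DN3 lists and CD73+ HEB and in neither later E2A list, 7 of 50 (14.0%, against 3.43%). Without the CD73+ E2A list 8 members had both DN3 peaks and a CD73+ HEB peak and no CD73- E2A peak (16.0%, against 4.84%). Of the 10 members with strong peaks in both DN3 lists, 10 had at least 1 later peak, against 89.1% of all such genes. Without the CD73+ E2A list 9 did, against 86.6%, since Mbd2 had its later peak in that list alone. By gene, 8 of 25 members with a DN3 E2A peak also had a CD73- E2A peak (32.0%, against 33.8% of all such genes) and 9 a CD73+ E2A peak (36.0%, against 36.6%). For HEB, 11 of 18 also had a CD73- peak (61.1%, against 41.5%) and 14 a CD73+ peak (77.8%, against 50.3%). None of these shares of all genes was weighted by span. The members are longer, with a median of 58.1 kb against 17.2 kb, and the part of span in these gaps was not tested. A later peak of a long gene need not lie at the DN3 site, so the sites themselves were compared.

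Of 57 DN3 E2A peaks at members, 7 overlapped a CD73- E2A peak, 12.3% (95% Wilson interval 6.08% to 23.2%, counting error only), against 13% of all DN3 E2A peaks. A CD73+ E2A peak overlapped 4, 7.02% (2.76% to 16.7%), against 9.27%. The CD73+ HEB list overlapped more of them, 25 or 43.9% (31.8% to 56.7%), against 27.9%. Of 47 DN3 HEB peaks at members, 10 overlapped a CD73- HEB peak, 21.3% (12.0% to 34.9%), against 19.4%, and 19 a CD73+ HEB peak, 40.4% (27.6% to 54.7%), against 27.2%. Peaks at 1 gene are not independent of each other, so these intervals are too narrow. Strong peaks made up 56.1% of DN3 E2A peaks at members against 40.6% of all, and 48.9% against 30.7% for HEB. Among strong DN3 peaks alone, the shares with a CD73+ HEB peak were 56.2% at members against 51.3% of all for E2A, and 56.5% against 57.6% for HEB.

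**Figure D4:**
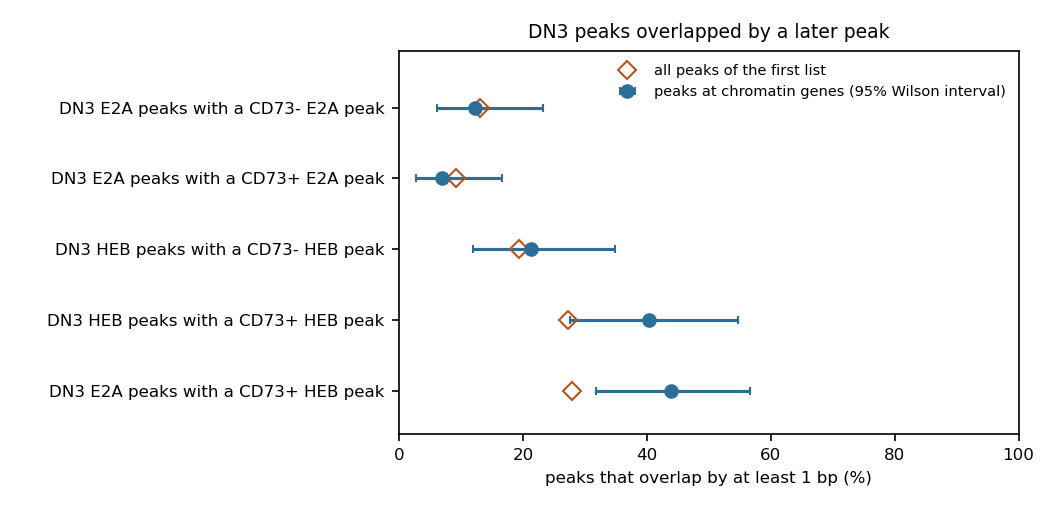
Percent of DN3 peaks overlapped by at least 1 bp by a peak of a later list. Circles are peaks at the 50 members with 95% Wilson intervals and diamonds all peaks of the first list; circles and diamonds lie close together except for overlap with CD73+ HEB peaks, at 43.9% against 27.9% for DN3 E2A peaks.

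Within a stage the lists share an input library, and its part in their overlap was not tested. The values were 52.6% of DN3 E2A and 61.7% of DN3 HEB peaks at members overlapped by the other factor, 20.0% of CD73- HEB peaks by a CD73- E2A peak and 10.5% of CD73+ HEB peaks by a CD73+ E2A peak. Over all peaks of these lists they were 44.1%, 46.0%, 22.2% and 14.8%. Among strong peaks the values at members were 75.0%, 78.3%, 66.7% and 21.4%, and over all strong peaks they were 77.4%, 85.1%, 74.0% and 31.8%. Another list met 5 of the 28 CD73+ E2A peaks at members (17.9%, against 16.8% of all) and 31 of their 38 CD73+ HEB peaks (81.6%, against 53.1% of all).

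Merged over the 6 lists, the 219 member peaks formed 126 sites, of which 105 lay inside the gene span. Of these sites 82 had a peak in 1 list (65.1%, against 82.3% of all sites), 21 in 2 lists (16.7%, against 10.5%) and 14 in 3 (11.1%, against 3.50%). Sites in 5 lists numbered 4 (3.17%, against 1.02%), and those in 5 or 6 lists 6 (4.76%, against 2.05%), 1 each in Chd7, Jarid2, Hdac7 and Hdac9 and the others in Hdac4. The pattern of both DN3 lists with CD73+ HEB and no other was found at 9 sites (7.14%, against 1.72%), and that of both DN3 lists alone at 11 (8.73%, against 3.86%). Sites of the CD73+ E2A list alone numbered 23 (18.3%, against 33.0%), and 3 of them were strong. Of the 103 member sites with a peak in the remaining 5 lists, 60 had a peak in 1 of them (58.3%, against 78.4% of 39140 sites) and 14 in 3 (13.6%, against 4.66%). The other single-list sites were 19 of DN3 E2A (15.1%, against 9.81%), 13 of DN3 HEB (10.3%, against 7.96%), 7 of CD73- E2A (5.56%, against 14.5%), 13 of CD73- HEB (10.3%, against 8.82%) and 7 of CD73+ HEB (5.56%, against 8.18%). Of 104 sites at members with a listed start, 6 lay within 1000 bp of one and 75 lay more than 10000 bp away, with a median distance of 41449 bp. Of the 21 sites outside the gene span, 7 were nearer to another coding gene, 1 each for Chd3, Chd4, Dnmt1, Dnmt3b, Ehmt2, Hdac1 and Mta1, and Chd4, Dnmt1, Hdac1 and Mta1 had no other site. The site that Cbx2 and Cbx8 share lay nearer Cbx2.

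**Figure D5:**
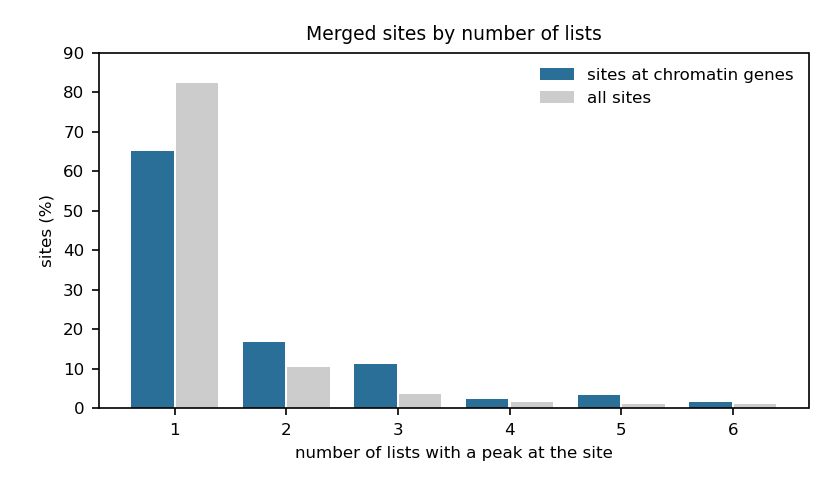
Percent of merged sites by the number of lists, from 1 to 6, with a peak at the site. Blue bars are the 126 sites at members and grey bars all 58451 sites; 65.1% of member sites and 82.3% of all sites had a peak in 1 list.

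The other chromatin genes, a list of 97 that leaves out the members, had a median span of 43.1 kb. Of them 34 had a peak for DN3 E2A, 32 for DN3 HEB, 19 for CD73- E2A, 31 for CD73- HEB, 24 for CD73+ E2A and 35 for CD73+ HEB, and 26 had none. In that order the shares were 35.1%, 33.0%, 19.6%, 32.0%, 24.7% and 36.1%. Those of all genes weighted to the spans of these 97 were 32.6%, 30.3%, 22.8%, 22.0%, 30.7% and 25.3%. The largest gap to the members was for DN3 E2A, at 50% of members, and for CD73- HEB both lists of genes stood at 32.0%.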

How the data were processed

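The 6 files are peak lists from 9 libraries with 1 per group. Bowtie, HOMER and MACS 1.4.2 are named, with build mm10, per the submitters' processing notes, and per the labels' protocols duplicates were joined into 1 file. The deposited score of each peak was used unchanged, and only to order and select peaks inside 1 list. Each list's name gives its cells and antibody, which set its group. Peaks on the 21 main chromosomes were kept, and coordinates are given 1-based.

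Gene spans, symbols and 250-base windows before listed starts came from RefSeq tables of GRCm38.p6, the same assembly as mm10. All 50 members matched, and 41 had a listed start. The tables give no exons, so exonic and intronic positions were not used. Peaks overlap when they share at least 1 bp. Shares have 95% Wilson intervals, which cover counting error only. Genes named in full were those with peaks in 5 or 6 lists, the 5 highest in each list, those with strong peaks in both DN3 lists and none later (no member met this), those with later peaks only, and, by name, those with none. The members and lists were chosen with earlier results of these data known. The split of the Hdac classes was added after values were seen. Alternatives were the gene span only, 5 kb on each side, a score of at least 100, equal lists of 9407 peaks, no peaks over 3000 bp, the nearest gene only, 50% reciprocal overlap and midpoints within 200 bp. Leaving out the CD73+ E2A list was chosen after seeing the data. The overlap code was tested on simulated data and recovered 200 of 200 planted genes. Scripts ran in Python 3.11.15 (scipy 1.17.1, pandas 2.3.3, numpy 2.4.6) and figures in matplotlib 3.10.9.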

Additional observations from a re-analysis of the deposited data

How the results depend on the processing

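Of 88 alternative values 66 stayed close to the reported one, within 1.5 times for a count and within its Wilson interval for a share, and 22 did not. With a score of at least 100, members with a peak numbered 16 for DN3 E2A, 3 for CD73- E2A, 6 for CD73- HEB, 4 for CD73+ E2A and 10 for CD73+ HEB. Members with a peak in all 6 lists then numbered 1, in both DN3 lists 10 and in no list 28. With peaks in the gene span only, 10 members had a CD73+ E2A peak and 21 had none in any list. Shares of all genes are not given for the gene span alone or for strong peaks over several lists. These counts thus show only how the member counts move. Without the CD73+ E2A list, an alternative chosen after seeing the data, 9 members in place of 14 had later peaks only. With the first list at a score of at least 100, the overlap at members was 75.0% (DN3 E2A by DN3 HEB), 78.3% (DN3 HEB by DN3 E2A), 66.7% (CD73- HEB by CD73- E2A), 39.1% (DN3 HEB by CD73- HEB) and 56.5% (DN3 HEB by CD73+ HEB). With 50% reciprocal overlap it was 2.63% (CD73+ HEB by CD73+ E2A), 6.38% (DN3 HEB by CD73+ HEB), 12.3% (DN3 E2A by CD73+ HEB) and 0.0% for DN3 E2A by CD73- E2A, DN3 E2A by CD73+ E2A and DN3 HEB by CD73- HEB. Later peaks are narrower than DN3 peaks, with medians of 149 to 181 bp against 617 and 721 bp, so few can reach 50% of both. No paired analysis was possible because each group has 1 pooled list, and for the same reason no replicate could be left out. Read depth is unknown, so the depth that a missing peak reflects cannot be given.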

Other observations

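Among the 97 other chromatin genes, Uhrf1, whose product brings Dnmt1 to newly copied DNA, had peaks in all 6 lists. The Uhrf1 peaks scored 921 for DN3 E2A, 384 for DN3 HEB, 127 for CD73- E2A, 120 for CD73- HEB, 55.9 for CD73+ E2A and 341 for CD73+ HEB. They lay 9183 to 9750 bp outside Uhrf1, in or within 524 bp of Arrdc5, so they are not tied to Uhrf1 by position. Prmt5, an arginine methyltransferase gene, had 1137 for DN3 E2A, 606 for DN3 HEB, 120 for CD73- E2A, 307 for CD73- HEB and 230 for CD73+ HEB. These peaks stood 6968 to 7504 bp outside it, and the next coding gene, Rem2, was 18521 bp or more from them. Bcl7a, a SWI/SNF subunit gene, held 568 for DN3 E2A, 278 for DN3 HEB, 52.4 for CD73- E2A, 69.7 for CD73- HEB and 166 for CD73+ HEB inside its span. Neither Prmt5 nor Bcl7a had a CD73+ E2A peak. These genes were named after their values were seen.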
